A study of Mus musculus with 6 samples.

Results

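The genes of the major histocompatibility complex (MHC, called H2 in the mouse) and of antigen presentation were followed in dendritic epidermal T cells (DETC), the γδ T cells of mouse epidermis, from mice that lack the aryl hydrocarbon receptor (Ahr-ko) and from heterozygous littermates (Ahr-het). All genes whose array symbol begins with H2- were taken, together with 12 further named genes of antigen presentation. This gave 44 of the 20300 genes tested, 35 of them H2- symbols and 9 of them further genes. Of the 12 further genes, Cd74, Nlrc5 and Raet1e had no tested probe set. The 44 genes were sorted by role into classical class I (H2-K1), 6 genes of class I assembly and peptide loading, 23 class Ib genes, the 2 class I-like genes Cd1d1 and Mr1 that lie outside the complex, 11 class II genes including Ciita and the pseudogene H2-Ea-ps, and H2-Ke6, an enzyme gene that lies in the complex.

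Gene expression was measured on 6 Clariom S Mouse arrays, 3 for Ahr-ko and 3 for Ahr-het. The mice carried the knockout allele of B6.129-Ahrtm1Bra/J, came from heterozygous breeding, were female and male and were 2 weeks old. Ahr-ko mice had 2 knockout alleles and Ahr-het mice had 1, so that no wild type group was included, although the study describes its mice as wild type. DETC of back and belly epidermis were sorted by the γδ TCR and the Vγ3 TCR to a purity of 90 to 98%, and each array holds RNA pooled from 2 to 3 mice, of which 10 ng was labelled. The share of DETC among living cells of the epidermis was 2 to 4% in Ahr-ko mice and 10 to 15% in Ahr-het mice. The knockout is not limited to DETC. The p-values measure the spread between pools, and in bulk samples of this kind fewer cells of a type and less RNA per cell cannot be told apart.

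Classical class I molecules, made of a heavy chain and beta-2-microglobulin, show peptides from the cytosol to CD8 T cells after the peptides have been pumped into the endoplasmic reticulum by TAP and fitted by tapasin. Class Ib molecules are close relatives with narrower expression and ligands, several of which are read by γδ T cells or NK cells. Class II molecules show peptides from endosomes to CD4 T cells. They are made mainly by professional antigen-presenting cells, which in epidermis are the Langerhans cells, and their genes are switched on by the coactivator CIITA through promoter elements called X and Y boxes.

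Values are log2 expression levels made by RMA, a method that corrects background, normalises arrays and sums the probes of a gene. A level depends on the probes of its gene, so levels of different genes were not compared. As T cells do not use the genes for odour and pheromone receptors, the level below which 95% of 1389 such genes fell served as the background limit of each array. It was 7.55 to 7.63 for Ahr-ko and 7.46 to 7.57 for Ahr-het. By this limit 57.4 to 60.1% of all genes were above background on an array, and arrays correlated with each other at r of 0.972 to 0.995 over genes. Ahr itself was 10.00, 10.40 and 10.39 in Ahr-ko and 10.77, 10.62 and 10.72 in Ahr-het (log2 fold change -0.44, SE 0.13, adjusted p = 0.18), and the sources used here do not give which exons its probes cover, so this gene does not check the genotype labels. The Y-linked gene Ddx3y was 9.10, 11.05 and 11.23 in Ahr-ko and 10.55, 6.14 and 6.11 in Ahr-het. It was below the limit on Ahr-het arrays 2 and 3 only, so the pools differed in the sex of their mice, and the part of sex in the results was not tested.

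Of the 44 genes 1 fell in Ahr-ko DETC and none rose in the fit without a term for the replicate number, while with that term Tapbpl was also called, as higher (adjusted p = 0.0281). The gene that fell was H2-Oa, the alpha chain of H2-O, which holds back the loading of class II molecules by H2-DM. The classical class I gene H2-K1, B2m and the class II genes H2-Aa, H2-Ab1 and H2-Eb1 differed between the genotypes by 0.22 or less on the log2 scale, none of them past the threshold. By limma with an adjusted p threshold of 0.05, 1.58% of all genes were called higher and 1.57% lower in Ahr-ko (320 and 318 genes, together 3.14%), and 1 call in 44 genes is close to this background. At an unadjusted p under 0.05 there were 4 of the 44 genes (Tapbpl and H2-Bl higher, H2-Oa and H2-M5 lower), against 2685 of the 20300. The log2 fold change (Ahr-ko over Ahr-het throughout) had a median of 0.04 over the 44 genes, with 30 positive and 14 negative, and of 0.00 over all genes. Of the 44 genes 26 were above the background limit on all arrays and 12 on no array.

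**Figure D1:**
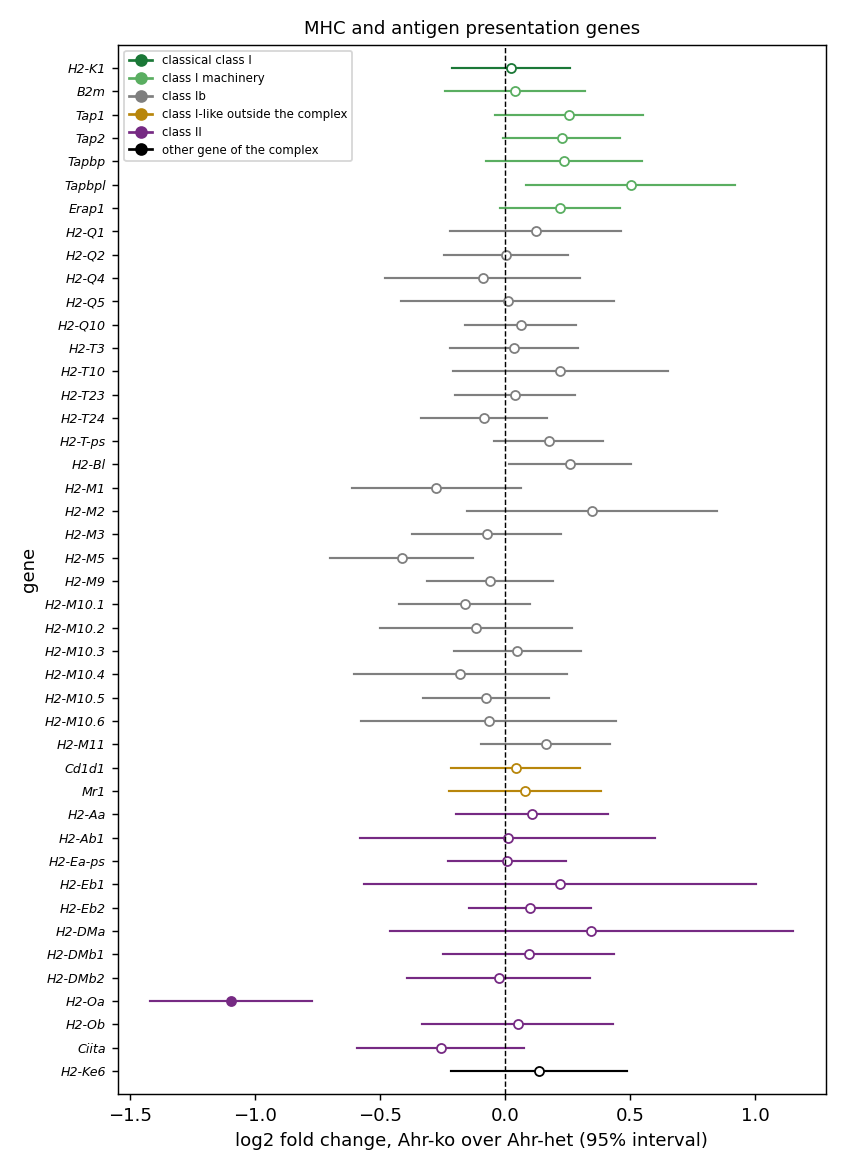
Log2 fold change (Ahr-ko over Ahr-het) for each of the 44 genes (points) with its 95% interval from the fit across all genes (lines), coloured by class. The filled point is H2-Oa, the 1 gene at an adjusted p under 0.05. The intervals of Tapbpl (0.08 to 0.92), H2-M5 (-0.70 to -0.13) and H2-Bl also lie to one side of 0 without a call in this fit, which has no term for the replicate number.

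H2-Oa (gene ID 15001, chromosome 17) was 7.35, 7.61 and 7.24 in Ahr-ko and 8.59, 8.28 and 8.60 in Ahr-het. The groups did not overlap, and all Ahr-ko values lay below the background limit of their array while all Ahr-het values lay above it. The means were 7.40 ± 0.19 in Ahr-ko and 8.49 ± 0.18 in Ahr-het (SD, n = 3 each), a fitted log2 fold change of -1.09 (SE 0.14, 95% interval -1.42 to -0.77, adjusted p = 0.00387). As Ahr-ko was at background, the level was at least 1.87-fold lower in Ahr-ko. With the limit at the 99th percentile of the receptor genes, 2 of 3 Ahr-het arrays were above it and the bound was at least 1.08-fold. The call held in all 15 alternative analyses, with adjusted p-values of 6.54e-04 to 0.0274. Not all of them could alter it. The mean of probe sets leaves its values as they are, because H2-Oa does not have several probe sets. H2-Oa passed the filter on background only through Ahr-het.

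H2-Ob, the beta chain that pairs with H2-Oa, was not called, and the difference between the 2 chains was not tested. H2-Ob (ID 15002) was 7.73, 7.53 and 7.58 in Ahr-ko and 7.36, 7.39 and 7.94 in Ahr-het. The groups overlapped, 1 array of each genotype was above background, and the log2 fold change was 0.05 (SE 0.17, adjusted p = 0.945). The promoters of both chains and of the class II genes H2-Aa and H2-Eb1, of which H2-Oa alone was called, are shown because all hold the letters of the same control element. They are the 250 bases before the start of the gene in RefSeq (GRCm38.p6, 5′ to 3′ on the strand of the gene). These are chr17:34092129-34092378 (+) for H2-Oa, chr17:34238655-34238904 (+) for H2-Ob, chr17:34287824-34288073 (-) for H2-Aa and chr17:34305617-34305866 (+) for H2-Eb1. Capitals mark ATTGG or its complement CCAAT, the core of the Y box, and AGCAAC, the core of the X1 box.
H2-Oa: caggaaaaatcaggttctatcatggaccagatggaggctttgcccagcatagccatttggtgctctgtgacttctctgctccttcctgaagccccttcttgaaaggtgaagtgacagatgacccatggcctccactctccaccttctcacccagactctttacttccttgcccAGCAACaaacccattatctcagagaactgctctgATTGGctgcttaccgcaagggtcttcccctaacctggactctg
H2-Ob: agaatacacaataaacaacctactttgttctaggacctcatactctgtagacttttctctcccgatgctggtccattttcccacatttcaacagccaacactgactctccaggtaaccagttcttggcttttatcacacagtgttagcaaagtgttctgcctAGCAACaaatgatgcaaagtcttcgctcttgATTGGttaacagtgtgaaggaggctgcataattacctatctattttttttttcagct
H2-Aa: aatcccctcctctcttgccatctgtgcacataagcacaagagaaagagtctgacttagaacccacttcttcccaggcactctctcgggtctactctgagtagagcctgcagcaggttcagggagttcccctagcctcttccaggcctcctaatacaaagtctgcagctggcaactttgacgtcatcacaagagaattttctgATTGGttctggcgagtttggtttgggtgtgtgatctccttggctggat
H2-Eb1: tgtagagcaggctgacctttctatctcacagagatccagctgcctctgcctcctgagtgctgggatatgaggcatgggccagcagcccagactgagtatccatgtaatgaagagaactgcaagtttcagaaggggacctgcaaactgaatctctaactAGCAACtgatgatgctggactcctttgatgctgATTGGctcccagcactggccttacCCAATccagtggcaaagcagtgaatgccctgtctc

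The first base of ATTGG lay 43 bases before the start in H2-Oa, 57 in H2-Ob, 48 in H2-Aa and 59 in H2-Eb1, which held CCAAT also at 35. AGCAAC lay 77 bases before the start in H2-Oa, 88 in H2-Ob and 92 in H2-Eb1, and H2-Aa did not hold these letters. Promoters were found for 33 of the 44 genes, and only the 250 bases before the start were searched. A gene of the 33 was counted if any of its promoters held the letters, while the share of all is per promoter. The 2 shares are therefore not like for like. On either strand, ATTGG was in 28 of these 33 genes, in all 8 class II genes among them and in 33.8% of 32851 mouse promoters. AGCAAC, a motif added after the values were seen, was in 5 of 33, in 4 of 8 class II genes (H2-Oa, H2-Ob, H2-Eb1 and H2-Eb2) and in 12.2% of all promoters. The core of the AHR binding element, GCGTG, was in 6 of 33 (Tap1, H2-M1, H2-M3, H2-M9, H2-Q10 and H2-Ke6), in 0 of 8 class II genes and in 28.2% of all promoters. TGACG, the core of the X2 box, was in 11 of 33, with H2-Aa as the class II gene among them, and in 17.8% of all. The core of the interferon-stimulated response element (GAAA and GAAA with 2 bases between) and the γ-activated site TTCNNNGAA were in 2 (B2m and H2-T23) and 3 (H2-DMb2, H2-M3 and H2-M11) of 33, against 2.98% and 7.02% of all. A match of letters does not show a binding site, and no match says only that these letters are not in this window.

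The classical class II chains were above the background limit on all arrays of both genotypes and did not differ past the threshold. Which cells of the sorted pools made them was not tested. H2-Aa, the alpha chain of I-A, was 9.58, 9.34 and 9.29 in Ahr-ko and 9.33, 9.45 and 9.11 in Ahr-het (log2 fold change 0.11, SE 0.13, 95% interval -0.20 to 0.41, adjusted p = 0.822). H2-Ab1, the beta chain of I-A, was 9.39, 8.58 and 8.41 in Ahr-ko and 9.10, 8.61 and 8.64 in Ahr-het. Its log2 fold change was 0.01 (SE 0.26, 95% interval -0.58 to 0.60, adjusted p = 0.993), an interval wide enough to hold differences of either sign. H2-Eb1, the beta chain of I-E, was 9.05, 7.81 and 7.69 in Ahr-ko and 8.32, 7.72 and 7.85 in Ahr-het (log2 fold change 0.22, SE 0.34, 95% interval -0.57 to 1.00, adjusted p = 0.868). For H2-Ab1 and H2-Eb1 the highest array of each genotype was replicate 1. With the limit at the 99th percentile of the receptor genes, H2-Eb1 was above it on 1 array of each genotype. H2-Aa and H2-Ab1 were above it on all arrays.

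Ciita (ID 12265), the coactivator of class II genes, was 7.08, 7.47 and 7.57 in Ahr-ko and 7.61, 7.75 and 7.53 in Ahr-het. All Ahr-ko arrays and Ahr-het array 3 lay below the background limit, and the groups overlapped (log2 fold change -0.26, SE 0.15, adjusted p = 0.535). H2-DMa, a chain of the peptide exchange factor H2-DM, was below the limit on all arrays, at 7.44, 6.27 and 6.60 in Ahr-ko and 7.09, 6.17 and 6.02 in Ahr-het. The DM beta chains H2-DMb1 and H2-DMb2 stood near the limit, at 7.19 to 7.63 and 6.99 to 7.55 in Ahr-ko and at 7.17 to 7.51 and 7.12 to 7.41 in Ahr-het. H2-Eb2 was 7.81 to 7.98 in Ahr-ko and 7.72 to 7.90 in Ahr-het, above the limit on all arrays. The pseudogene H2-Ea-ps, which stands in place of the I-E alpha chain, was below the limit throughout. Of the 11 class II genes 4 were above background on all arrays, 5 on all Ahr-het arrays and 2 on none, and the log2 fold changes ran from -1.09 to 0.34 with a median of 0.05.

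**Figure D2:**
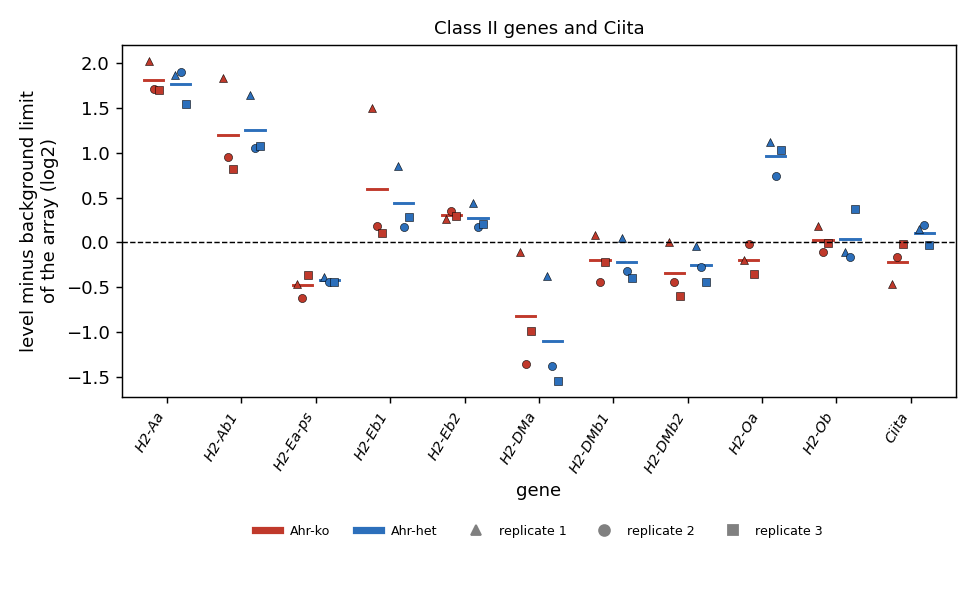
Level of each class II gene and Ciita minus the background limit of the array (log2), for the 3 Ahr-ko arrays (red) and the 3 Ahr-het arrays (blue), with replicates 1, 2 and 3 as triangle, circle and square and the group mean as a line. H2-Oa is below 0 on all Ahr-ko arrays and above 0 on all Ahr-het arrays. The triangles of H2-Ab1, H2-Eb1 and H2-DMa stand above the other arrays of both genotypes.

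Some class II transcripts had higher levels on the replicate 1 arrays of both genotypes, H2-DMa below the background limit. The level of replicate 1 minus the mean of replicates 2 and 3 was 1.30 in Ahr-ko and 0.53 in Ahr-het for H2-Eb1, 1.01 and 1.00 for H2-DMa, and 0.89 and 0.48 for H2-Ab1. It was above 0.5 in both genotypes for 2 of 11 class II genes, H2-Eb1 and H2-DMa, and for 503 of all 20300 genes (2.48%). Of other genes, Lilrb4a, an inhibitory receptor gene of myeloid cells, stood 2.14 and 1.31 higher on replicate 1. Lilrb4a was above background only on the replicate 1 array of Ahr-ko, and the macrophage markers Lyz2 and Cd14 were below background on all arrays. The keratins Krt14 (-1.12 and -0.92) and Krt5 (-0.71 and -1.06), made by basal keratinocytes, stood lower on replicate 1. The other keratinocyte markers are not given here for this difference. The part of other cells in these differences was not tested. Without both replicate 1 arrays H2-Oa remained called, and H2-Ab1 had a log2 fold change of -0.13 and H2-Eb1 of -0.04.

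Markers of the cells that make class II were measured beside these genes. Of 10 Langerhans cell markers, Cd207 (langerin) was 7.51, 7.81 and 7.42 in Ahr-ko and 7.48, 7.43 and 7.46 in Ahr-het, above background on 1 array of each genotype, and Epcam was 8.55 to 8.68 in Ahr-ko and 8.80 to 9.03 in Ahr-het (adjusted p = 0.311). The mean level of the 10 markers was 8.15 to 8.26 in Ahr-ko and 7.65 to 7.76 in Ahr-het. Without Itgax that of the other 9 was 7.75 to 7.83 in Ahr-ko and 7.71 to 7.82 in Ahr-het. Itgax was left out because it was the marker called, so the means of the other 9 are not a test. The marker that rose was Itgax (CD11c), an integrin gene that T cells can also make, at 11.71 to 12.05 in Ahr-ko and 7.03 to 7.23 in Ahr-het (at least 19.8-fold higher, adjusted p = 1.45e-06). Of 8 markers of other dendritic cells none was called, Flt3 was below background on all arrays and Zbtb46 was above it on all, and the mean level was 8.08 to 8.13 in Ahr-ko and 8.00 to 8.15 in Ahr-het. Of 7 B cell markers none was called, with a mean level of 7.0 to 7.07 in Ahr-ko and 6.97 to 7.16 in Ahr-het. Cd79a was above background on 1 Ahr-ko and 2 Ahr-het arrays. At an unadjusted p under 0.05, 2 of the Langerhans cell markers and none of the other dendritic or B cell markers differed.

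The heavy and light chain of class I were far above background in both genotypes, with no difference past the threshold. H2-K1 (ID 14972), the one classical heavy chain with a tested probe set, was 12.83, 12.86 and 12.92 in Ahr-ko and 12.73, 12.90 and 12.91 in Ahr-het (log2 fold change 0.02, SE 0.10, 95% interval -0.21 to 0.26, adjusted p = 0.959). B2m, the light chain, was 12.86, 12.68 and 12.93 in Ahr-ko and 12.64, 12.93 and 12.78 in Ahr-het (log2 fold change 0.04, SE 0.12, 95% interval -0.24 to 0.32, adjusted p = 0.939). The groups overlapped for both genes, and both stood more than 5 above the background limit. Class I genes share much of their sequence, and probes that read several of them leave the level of each class I and class Ib gene uncertain.

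All 6 genes of class I assembly and loading had a positive log2 fold change, from 0.04 to 0.50 with a median of 0.23, and none was called (1 at an unadjusted p under 0.05). Tap1, a chain of the peptide pump, was 11.35, 10.95 and 11.10 in Ahr-ko and 10.98, 10.81 and 10.85 in Ahr-het (log2 fold change 0.25, SE 0.13, adjusted p = 0.475). Tap2, the other chain, was 9.89, 9.97 and 10.07 in Ahr-ko and 9.70, 9.81 and 9.74 in Ahr-het (0.23, SE 0.10, adjusted p = 0.396). The Ahr-ko values of Tap2 lay above all its Ahr-het values, while those of Tap1 overlapped. The same held without overlap for Tapbp (tapasin), at 11.67, 11.25 and 11.28 in Ahr-ko and 11.20, 11.22 and 11.08 in Ahr-het (0.23, SE 0.14, adjusted p = 0.550). Erap1, which trims peptides in the endoplasmic reticulum, was 10.02, 9.81 and 9.95 in Ahr-ko and 9.73, 9.74 and 9.65 in Ahr-het (0.22, SE 0.10, adjusted p = 0.439).

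The largest difference among the loading genes was that of Tapbpl, a relative of tapasin that edits peptides (ID 213233). It was 10.89, 11.47 and 11.35 in Ahr-ko and 10.49, 10.74 and 10.97 in Ahr-het, and the groups overlapped by the lowest Ahr-ko array and the highest Ahr-het array. The log2 fold change was 0.50 (SE 0.18, 95% interval 0.08 to 0.92, adjusted p = 0.272). In the fit with a term for the replicate number, called the replicate block, 1 of the 44 genes was called higher, Tapbpl, beside 3.68% of all genes, and 1 lower, H2-Oa, beside 3.9%. In all, 5 of the 44 genes had Ahr-ko values above all Ahr-het values (Tap2, Tapbp, Erap1, H2-T-ps and H2-Bl), beside 9.76% of all genes, and 2 had Ahr-ko values below all Ahr-het values (H2-Oa and H2-M5), beside 8.91%.

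**Figure D3:**
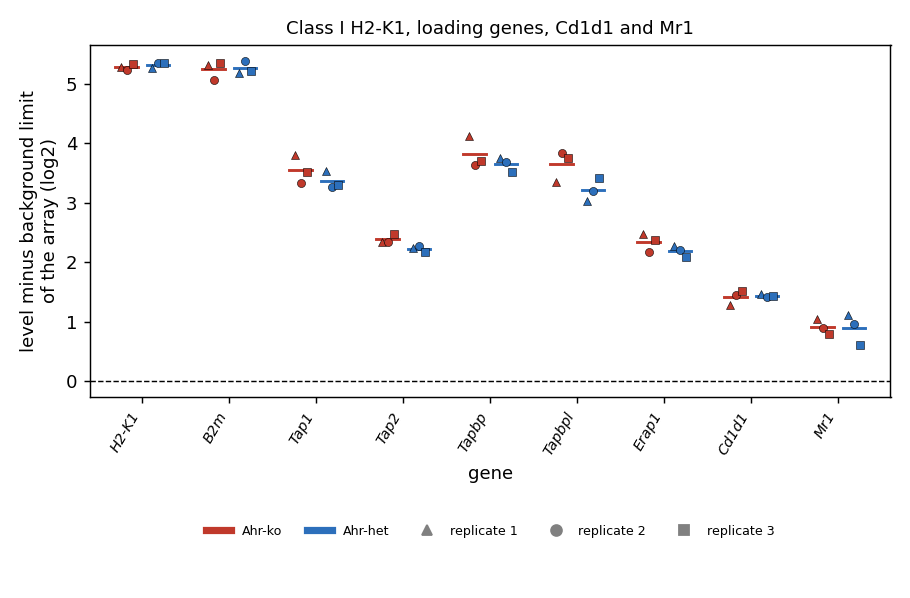
Level minus the background limit of the array (log2) for H2-K1, the class I loading genes, Cd1d1 and Mr1 on the 3 Ahr-ko arrays (red) and the 3 Ahr-het arrays (blue), with the group mean as a line and the replicate as the symbol. All values are above 0, and the means of Tap1, Tap2, Tapbp, Tapbpl and Erap1 stand higher in Ahr-ko (log2 fold changes of 0.22 to 0.50), without a call in the fit that has no replicate block.

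Most log2 fold changes of the wider class I pathway were positive and small. Of 12 class I loading genes, the 6 above among them, 11 had a positive log2 fold change with a median of 0.22, and none was called (3 at an unadjusted p under 0.05). Of 6 genes of the immunoproteasome, which cuts peptides for class I, and of its activator PA28, all 6 were positive with a median of 0.29 and none was called (2 at an unadjusted p under 0.05). Psmb8, a catalytic subunit, was 11.09, 10.62 and 10.68 in Ahr-ko and 10.60, 10.26 and 10.07 in Ahr-het (log2 fold change 0.49, adjusted p = 0.266). It was called with the replicate block (adjusted p = 0.0226). Over all genes 50.8% were positive and the median was 0.00.

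Interferon-γ raises class I and class II genes through its receptor. Ifngr2, the signalling chain of that receptor, fell in Ahr-ko, at 9.19, 9.20 and 9.14 against 11.10, 10.85 and 10.79 in Ahr-het (log2 fold change -1.74, SE 0.11, adjusted p = 1.04e-04). Ifngr1, the ligand-binding chain, was 10.50, 10.77 and 10.50 in Ahr-ko and 10.19, 10.31 and 9.99 in Ahr-het (log2 fold change 0.42, adjusted p = 0.175), and was called higher with the replicate block (adjusted p = 0.0378). The groups did not overlap for either chain. The other 10 of 12 interferon signalling genes, among them Jak1, Jak2 and Irf1, were not called in either analysis, and the median of the 12 was 0.02. Of all genes 1.57% were called lower, and 3.68% higher and 3.9% lower with the replicate block.

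Class Ib genes ranged from strongly above background to below it, and none of the 23 was called (2 at an unadjusted p under 0.05). Their log2 fold changes ran from -0.41 to 0.35 with a median of 0.00, 12 positive and 11 negative. Above background on all arrays were 12 of the 23, and on no array 10. H2-T23 (Qa-1), the ligand of the NKG2A receptor of NK cells, was 10.46, 10.25 and 10.43 in Ahr-ko and 10.32, 10.35 and 10.36 in Ahr-het (log2 fold change 0.04, SE 0.10, adjusted p = 0.927). H2-M3, which presents formylated peptides, was 9.42, 9.19 and 9.32 in Ahr-ko and 9.57, 9.40 and 9.18 in Ahr-het (log2 fold change -0.07, SE 0.13, adjusted p = 0.886). The groups overlapped for both.

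H2-M5 (ID 240095) had the lowest log2 fold change of the class Ib genes. It was 7.73, 7.78 and 7.69 in Ahr-ko and 8.33, 8.18 and 7.93 in Ahr-het, above background on all arrays, and the groups did not overlap. In Ahr-ko it stood only 0.14 above the limit on average. With the limit at the 99th percentile of the receptor genes, 0 of 3 Ahr-ko and 1 of 3 Ahr-het arrays were above it. The log2 fold change was -0.41 (SE 0.12, 95% interval -0.70 to -0.13, adjusted p = 0.169). It was not called with the replicate block (adjusted p = 0.0571). H2-M2 had the highest, 0.35 (SE 0.22, adjusted p = 0.583), and was below background on all arrays.

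None of the Q and T genes of class Ib differed past the threshold. H2-Q1, H2-Q2, H2-Q4, H2-Q5 and H2-Q10 had log2 fold changes of -0.09 to 0.12, and H2-T3, H2-T10, H2-T23, H2-T24 and H2-T-ps of -0.08 to 0.22. H2-T10, whose product is a known ligand of some γδ TCR and which RefSeq lists here as a transcribed pseudogene, was 11.34, 11.57 and 11.75 in Ahr-ko and 10.94, 11.54 and 11.53 in Ahr-het (log2 fold change 0.22, SE 0.19, adjusted p = 0.717). H2-Q5, likewise listed as a transcribed pseudogene, was 10.28 to 10.60 in Ahr-ko and 10.01 to 10.69 in Ahr-het. H2-T-ps was 11.08, 11.14 and 11.13 in Ahr-ko and 10.98, 10.93 and 10.92 in Ahr-het without overlap (log2 fold change 0.17, adjusted p = 0.513). The H2-M10 genes, known from sensory neurons of the vomeronasal organ, were below background on all arrays in 5 of 6 cases.

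**Figure D4:**
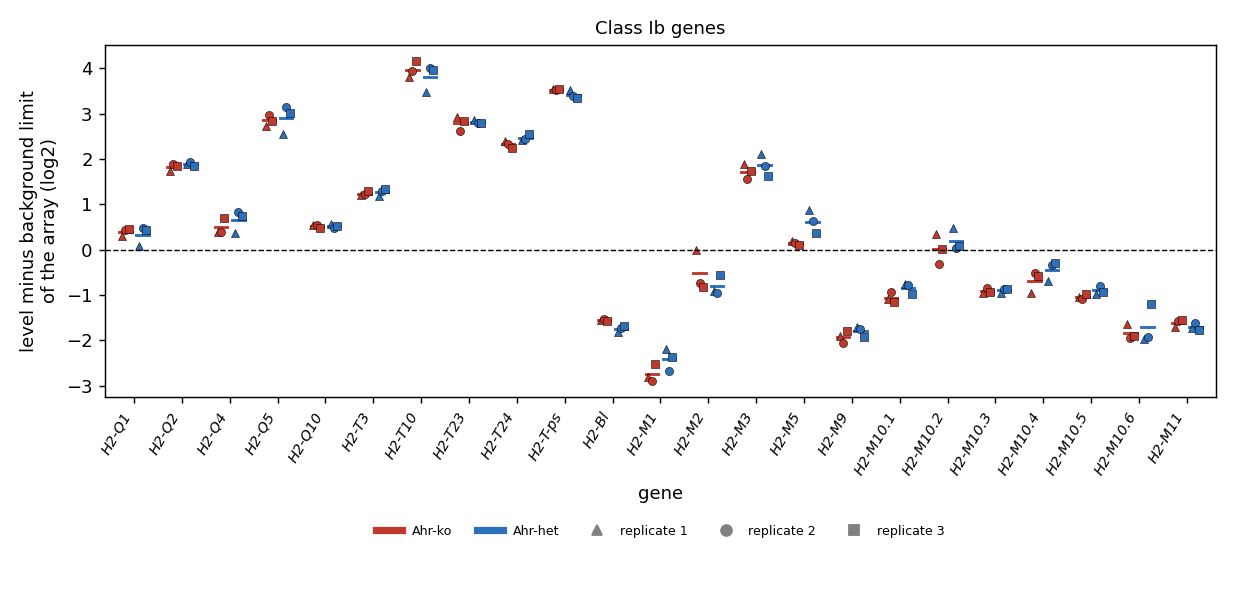
Level of each of the 23 class Ib genes minus the background limit of the array (log2) on the 3 Ahr-ko arrays (red) and the 3 Ahr-het arrays (blue), with the group mean as a line and the replicate as the symbol. The Q and T genes lie above 0 on all arrays, the M genes above 0 on all arrays are H2-M3 and H2-M5, and the other M genes and H2-Bl lie near or below 0.

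The class I-like genes outside the complex were above background on all arrays and were not called. Cd1d1, which presents lipids to NKT cells, was 8.83, 9.07 and 9.11 in Ahr-ko and 8.93, 8.96 and 8.99 in Ahr-het (log2 fold change 0.04, SE 0.11, adjusted p = 0.929). Mr1, which presents vitamin B metabolites to MAIT cells, was 8.59, 8.52 and 8.38 in Ahr-ko and 8.57, 8.50 and 8.18 in Ahr-het (log2 fold change 0.08, SE 0.13, adjusted p = 0.878). The groups overlapped for both. Of 6 genes of lipid and metabolite presentation none was called, also none at an unadjusted p under 0.05.

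The enzyme gene H2-Ke6 was 10.69 to 11.10 in Ahr-ko and 10.62 to 11.03 in Ahr-het (log2 fold change 0.14, SE 0.15, adjusted p = 0.801). Of 16 further genes of class II loading, among them the cathepsins and the RFX and NF-Y subunits that bind the X and Y boxes, none was called (2 at an unadjusted p under 0.05), and the median was -0.07 with 11 negative. Ctss, which cuts the invariant chain, was 9.33 to 9.66 in Ahr-ko and 9.39 to 9.54 in Ahr-het. Rfx5 was 8.80 to 9.45 in Ahr-ko and 9.04 to 9.53 in Ahr-het. Both ranges overlapped.

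None of the genes next to H2-Oa on the chromosome was called. In the order of RefSeq, 174 tested genes lie from Tapbp to H2-M2 on chromosome 17, 38 of them among the 44 genes. Of the 174 genes 2 were called higher and 7 lower, beside 1.58% and 1.57% of all genes. With the replicate block 4 were called higher and 9 lower, beside 3.68% and 3.9% of all genes. The block added Psmb8 and Ly6g5b (0.78) as higher and Ltb (-0.48) and 2410137M14Rik as lower. The 3 tested genes on each side of H2-Oa (Slc39a7, Rxrb, Col11a2, Brd2, H2-DMa and H2-DMb2) had log2 fold changes of -0.10 to 0.34, and 0 of 6 were called in either direction. H2-M5, in contrast, lay between genes that fell, here named after their values were seen. From 5 genes before it to 3 genes after it, 3 of the 8 other genes were called lower, beside 1.57% of all genes. This window was set with the values known, so the count is not a test. With the replicate block 2410137M14Rik (-0.57, adjusted p = 0.0422) was also called lower, and it was below background on all arrays. Rnf39, a RING finger gene, was 10.14, 9.72 and 9.97 in Ahr-ko and 12.23, 12.12 and 12.25 in Ahr-het (log2 fold change -2.26, SE 0.13, adjusted p = 5.1e-05).

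Zfp57, a zinc finger gene that keeps imprints, was 7.05, 6.56 and 7.09 in Ahr-ko, below background, and 8.84, 8.64 and 8.69 in Ahr-het (at least 2.19-fold lower, adjusted p = 4.3e-04). Gabbr1, a GABA receptor gene, was 10.54, 10.61 and 10.49 in Ahr-ko and 12.06, 11.82 and 11.85 in Ahr-het (log2 fold change -1.36, SE 0.11, adjusted p = 3.19e-04). The groups did not overlap for any of these 3 genes. The other 5 had log2 fold changes of -0.57 to -0.04. Of the other genes of the stretch, Vwa7, Sapcd1 and Atp6v1g2 were called lower (-1.17, -0.89 and -0.60) and Clic1 and Lst1 higher (0.48 and 0.61). Vwa7 was above background on 1 of 3 Ahr-ko arrays and Lst1 on 1 of 3 Ahr-het arrays, so the sizes of these 2 differences are uncertain.

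**Figure D5:**
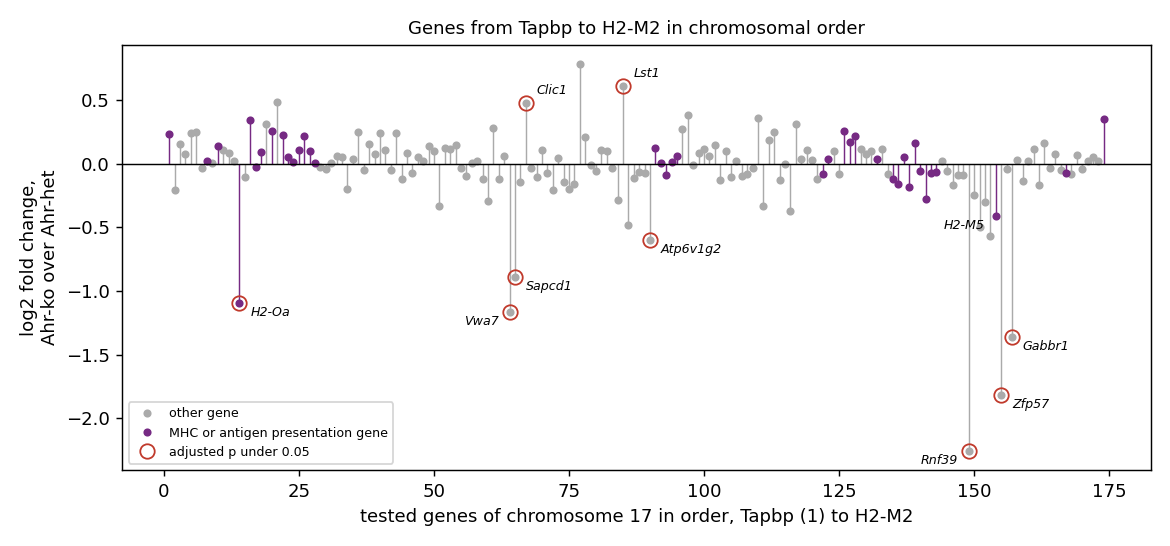
Log2 fold change (Ahr-ko over Ahr-het) for the 174 tested genes of chromosome 17 from Tapbp to H2-M2 in RefSeq order, with the MHC and antigen presentation genes in purple, other genes in grey and calls ringed in red. H2-Oa stands alone below its neighbours, and H2-M5 stands between Rnf39, Zfp57 and Gabbr1, which were called lower.

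Calls were also made among the molecules that accompany or read MHC molecules. Of 6 costimulation genes Cd274 (PD-L1), the ligand of the inhibitory receptor PD-1, rose to 10.03, 10.92 and 11.02 in Ahr-ko, against 8.74, 8.54 and 8.71 in Ahr-het (log2 fold change 2.00, SE 0.24, adjusted p = 0.00284). Cd80, a ligand of CD28 and CTLA-4, was 7.76, 8.33 and 8.26 in Ahr-ko and 7.02, 7.28 and 7.59 in Ahr-het (log2 fold change 0.83, adjusted p = 0.0732). It was called with the replicate block (adjusted p = 0.00236). Cd80 was below the background limit on Ahr-het arrays 1 and 2 and just above it on array 3, so the size of its difference is uncertain. The groups did not overlap for either gene, and all 6 genes had a positive log2 fold change, with a median of 0.42. Of the 6 genes 1 was called higher, beside 1.58% of all genes. With the replicate block 2 were, beside 3.68%.

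Of 14 tested genes of a list of CD8, CD4 and other receptors, 3 rose and none fell, beside 1.58% and 1.57% of all genes. The median log2 fold change was 0.29. The list was made for receptors of MHC, but binding to MHC was not checked for each gene. Cd8a, a coreceptor for class I, was 9.66, 8.61 and 9.03 in Ahr-ko and 7.06, 7.59 and 7.65 in Ahr-het (log2 fold change 1.67, SE 0.27, adjusted p = 0.0127), with Ahr-het array 1 below background. Cd8b1, its partner chain, was 8.90, 8.59 and 8.88 in Ahr-ko and 8.13, 8.26 and 7.93 in Ahr-het (log2 fold change 0.68, SE 0.13, adjusted p = 0.0345). Cd160, a receptor for class I and for HVEM, was 11.05, 10.73 and 10.89 in Ahr-ko and 10.13, 10.12 and 10.00 in Ahr-het (log2 fold change 0.81, SE 0.12, adjusted p = 0.00753). The Ahr-ko values of all 3 genes lay above all their Ahr-het values. Cd4, the coreceptor for class II, was 7.34, 7.89 and 7.27 in Ahr-ko and 7.58, 7.75 and 8.22 in Ahr-het (adjusted p = 0.571). With the replicate block 5 of the 14 were called higher, beside 3.68% of all genes, Klra7 and Lilrb4a being the further ones. Klra7 was below background on all arrays, and Lilrb4a above it on Ahr-ko array 1 alone.

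Of 11 genes for NKG2D, its adaptor and its ligands 5 were tested, and none was called, also none at an unadjusted p under 0.05. Klrk1, which encodes the stress receptor NKG2D, was 11.88, 11.40 and 11.36 in Ahr-ko and 11.48, 10.82 and 11.04 in Ahr-het (log2 fold change 0.43, SE 0.20, adjusted p = 0.420), with overlap. With the replicate block it was called higher (adjusted p = 0.0393).

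The sort was checked against markers of T cells and of other cells. Beside the calls in these lists, 1.58% of all genes were called higher and 1.57% lower. With the replicate block these shares were 3.68% and 3.9%. All 12 T cell and DETC markers were above background on all arrays, with Cd3d at 13.15 to 13.33 in Ahr-ko and 13.20 to 13.45 in Ahr-het, and the mean level of the list was 12.81 to 13.01 in Ahr-ko and 12.79 to 12.95 in Ahr-het. Of these markers Ptprc (CD45) was called higher (log2 fold change 0.47, adjusted p = 0.0437), and with the replicate block Klrk1 as well. Of 6 αβ T cell markers Cd8a, Cd8b1 and Cd6 rose and Themis fell, with a mean level of 9.07 to 9.13 in Ahr-ko and 8.59 to 8.66 in Ahr-het. Of 6 NK cell markers Eomes, Ncr1 and Klri2 rose, with a mean level of 9.15 to 9.68 in Ahr-ko and 8.35 to 8.69 in Ahr-het. Klrb1c (NK1.1) was 10.51, 9.41 and 9.84 in Ahr-ko and 11.34, 10.39 and 10.51 in Ahr-het (log2 fold change -0.83, adjusted p = 0.308) and was called lower with the replicate block (adjusted p = 0.00169). Klrb1b was lower on all Ahr-ko arrays than on any Ahr-het array without a call (log2 fold change -0.35, adjusted p = 0.203). Of 10 macrophage markers Ccr2 rose, Lyz2 and Cd14 were below background on all arrays, and the mean level was 7.71 to 7.89 in Ahr-ko and 7.35 to 7.44 in Ahr-het. Without Ccr2 the mean of the other 9 was 7.40 to 7.54 in Ahr-ko and 7.43 to 7.56 in Ahr-het. Ccr2 was left out because it was the marker called, so this mean is not a test. Of 10 keratinocyte markers Dsp fell, while Krt5 and Krt14 were above background on all arrays, and the mean level was 8.78 to 9.09 in Ahr-ko and 8.98 to 9.22 in Ahr-het. Of 6 mast cell markers none was called, and Cpa3 and Mcpt4 were below background on all arrays. The part of other cells or of a shift among T cells in these results was not tested.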

How the data were processed

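RNA of sorted DETC was measured on 6 arrays, 3 Ahr-ko and 3 Ahr-het, whose genotypes and replicate numbers stand in the labels. Expression values were deposited by the authors as log2 levels after RMA. Its version, the probe positions and the build of the array were not given in the sources used here, so no probe positions are given. The promoter coordinates printed above are those of RefSeq. The deposited gene table, whose annotation gave the symbols, otherwise holds the authors' own comparison (log2 fold changes, p-values and limma scores), which was not used. The submitters' processing notes name limma 3.38.3. Arrays give no depth, and their number limits the precision.

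Of 29129 probe sets, 20435 name a gene, and the other 8694 were not tested. The brightest probe set stood for a gene with several (86 genes, none of the 44), which left 20300 genes. Genotypes were compared with lmFit and eBayes (limma 3.58.1, R 4.3.3) and Benjamini-Hochberg adjustment over all genes at a threshold of 0.05. Where all 3 arrays of a genotype were below the background limit, the difference is a bound, the mean of the brighter genotype against the mean limit of the other. Promoters, gene order and gene types came from RefSeq (GRCm38.p6), and all 44 genes matched by ID.

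Deviations from the group means correlated at 0.572, 0.369 and 0.207 over genes for equal replicate numbers 1, 2 and 3, so equal numbers may pair the arrays. The fit reported throughout has no term for the number, and a fit with the number as a block was run beside it. Unequal numbers 2 and 3 also correlated (0.236 and 0.336), and no label states what a number marks. The replicate block is given where it changes a call of a named gene or a count of calls.

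Alternatives were the replicate block, renewed quantile normalization, median centring, a filter on background, the mean of probe sets, joint adjustment over all probe sets, array weights, an intensity trend, leaving out each array, leaving out both replicate 1 arrays, and the 99th percentile as background limit. The genes, lists, tests and named genes were chosen with earlier results of these data known. Values per array are given for called genes and for a set of core presentation genes whatever their test, and from the lists for genes called and for defining markers. Some genes of the lists are not reported here.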

Additional observations from a re-analysis of the deposited data

How the results depend on the processing

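H2-Oa was called lower in all 15 alternatives, with log2 fold changes of -1.20 to -1.01. The mean of probe sets could not change its log2 fold change, and H2-Oa passed the filter on background only through Ahr-het. Over all genes, 638 calls became 1538 with the replicate block, 1716 with array weights and 1147 without both replicate 1 arrays, and 342 to 644 when 1 array was left out. Calls were fewest without Ahr-ko replicate 3 (342), Ahr-het replicate 2 (355) or Ahr-het replicate 3 (371). Among the 44 genes 1 was called higher, Tapbpl, with the replicate block, with array weights (adjusted p = 0.0383) and without both replicate 1 arrays (adjusted p = 0.0488). With array weights 2 were called lower, H2-Oa and H2-M5 (adjusted p = 0.0468). The cause was not tested. The block changed no other call among them. Renewed quantile normalization and median centring changed no call or sign of the 44. The mean of probe sets, joint adjustment and an intensity trend changed no call. They leave the log2 fold changes of the 44 as they are, so signs could not change there. The filter on background tested 28 of the 44 genes, and with the 99th percentile as limit 19 were above it in a genotype in place of 28.

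Small log2 fold changes turned sign. Without both replicate 1 arrays they were -0.013 for H2-K1, -0.051 for B2m, -0.12 for H2-Q5, -0.0085 for H2-T3, -0.013 for H2-T23, -0.13 for H2-Ab1, -0.036 for H2-Eb1 and -0.11 for H2-Ob. With array weights they were -0.12 for H2-Q5, 0.0065 for H2-M9 and -0.13 for H2-Ab1. Leaving out 1 array gave the ranges B2m -0.033 to 0.11, Cd1d1 -0.011 to 0.13, H2-Ab1 -0.29 to 0.20, H2-DMb1 -0.023 to 0.20, H2-DMb2 -0.18 to 0.10, H2-Ea-ps -0.053 to 0.055, H2-Eb1 -0.21 to 0.47, H2-K1 -0.034 to 0.054, H2-M10.2 -0.26 to 0.027, H2-M10.3 -0.016 to 0.093, H2-M10.6 -0.24 to 0.21, H2-M3 -0.17 to 0.019, H2-Ob -0.052 to 0.24, H2-Q1 -0.031 to 0.20, H2-Q2 -0.052 to 0.072, H2-Q4 -0.26 to 0.015, H2-Q5 -0.20 to 0.14, H2-T23 -0.00084 to 0.11, H2-T3 -0.042 to 0.095, Mr1 -0.038 to 0.16. None of these was called in any alternative. Genes near the background limit, such as H2-Oa in Ahr-ko, have only a bound, and 12 of the 44 genes were above the limit on no array.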
